A study of Mus musculus with 8 samples.

Results

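The vacuolar proton pump of lysosomes (V-ATPase) and the proteins that read amino acid supply at the lysosomal surface were followed through 40 genes out of 35906 in the count table. Of these, 22 are all symbols in the gene-level table that begin with Atp6v, and 18 were listed by name: the pump's accessory subunits Atp6ap1 and Atp6ap2, the membrane glycoproteins Lamp1 and Lamp2, the Ragulator subunits Lamtor1 to Lamtor5, the Rag GTPases Rraga, Rragc and Rragd, folliculin and its partners (Flcn, Fnip1, Fnip2), the channel gene Mcoln1, and the chloride exchanger pair Clcn7 and Ostm1. RNA came from liver macrophages of BALB/c WT mice, with 4 libraries from mice given CCl4, a hepatotoxin used to produce liver fibrosis, and 4 libraries from mice given vehicle. All 8 were sorted as live CD45+ F4/80+ CD31- cells after collagenase digestion and low-speed removal of hepatocytes. The sources used here give no sex or age of the mice and no dose or schedule of CCl4. Whether the 4 libraries of a group come from different mice is not stated either, so the p-values describe variation among these libraries, some of which may be technical.

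The V-ATPase couples ATP hydrolysis in a cytosolic sector, V1, to proton transfer through a membrane sector, V0, and so acidifies lysosomes. Macrophages depend on acid lysosomes to digest engulfed cells and lipoproteins. When amino acids are plentiful, the V-ATPase and Ragulator hold active Rag GTPases on the lysosome, and these recruit the growth kinase mTORC1. Folliculin with a FNIP partner acts on RagC and RagD, a branch that also controls the TFEB and TFE3 transcription factors of lysosomal genes.

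Library totals ran from 19489104 to 26196063 estimated counts, and the 40 members took 0.837% to 0.888% of counts in CCl4 libraries, against 0.728% to 0.77% in vehicle libraries. The pan-macrophage markers Adgre1 (F4/80), Ptprc (CD45), Csf1r, Cd68, Lyz2, Fcgr1 and Mertk were detected in both groups, and of these 7 only Lyz2 passed the test between groups. Other cell populations moved with the groups. All 6 lipid- and scar-associated macrophage markers tested were higher (summed level 8134 to 17850 CPM in CCl4 and 1029 to 1474 CPM in vehicle) and 5 of 6 Kupffer cell markers were lower (5541 to 10560 CPM in CCl4 and 15130 to 23620 CPM in vehicle). Higher in CCl4 were also 2 of 6 monocyte markers (202.9 to 408.2 CPM, against 62.85 to 99.76 CPM), 7 of 12 neutrophil markers (247 to 536.9 CPM, against 105.8 to 235.6 CPM), 6 of 8 mesothelial markers (66.49 to 190.9 CPM, against 6.922 to 35.65 CPM) and 3 of 7 osteoclast markers (777.5 to 1168 CPM, against 610.3 to 808.4 CPM), while 8 of 10 sinusoidal endothelial markers were lower (207.6 to 344.5 CPM, against 518.3 to 905.3 CPM). Of 10 stellate cell and fibroblast markers (summed level 177.8 to 360.3 CPM, against 126.7 to 512.7 CPM), the collagen genes Col1a1, Col1a2 and Col3a1 were higher (log2 fold change 2.54, 1.66 and 1.65), while Lrat and Reln, known from quiescent stellate cells, were lower (-2.26 and -1.80). The 10 hepatocyte markers (summed level 3923 to 6131 CPM in CCl4 and 3831 to 5660 CPM in vehicle) had 1 call, Alb, which was lower. Nearly all of that sum was Trf, not called, at 3798 to 5969 CPM in CCl4 and 3678 to 5483 CPM in vehicle. Alb was at 16.4 to 38.6 CPM in CCl4 and 47.7 to 54.6 CPM in vehicle. Most of the osteoclast sum was likewise 1 gene, Acp5, not called, at 648 to 985 CPM in CCl4 and 537 to 721 CPM in vehicle. The 6 B cell markers (201.6 to 505.8 CPM, against 110 to 320 CPM) had 1, Cd79b, also lower. Of the 6 dendritic cell markers (68.87 to 139.4 CPM, against 53.28 to 104.5 CPM) Flt3 was higher and Clec9a lower. None of 7 T and NK cell markers passed edgeR, and 0 had an unadjusted p under 0.05. No marker of these lists was at 0 in all libraries. In sorted but bulk RNA, fewer cells of a type and less RNA per cell cannot be told apart, and the part of these populations in the results below was not tested. The mitochondrial share of counts was 0.763% to 1.16% in CCl4 and 1.91% to 5.31% in vehicle. Vehicle 2 and CCl4 4 stood apart from the other libraries of their groups, with the 2 lowest totals and the 2 highest numbers of genes detected. Calls of members that change without these 2 libraries are given both ways. Pathway genes gained without them are given by number only.

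Some members were higher in CCl4 macrophages and most did not pass the test. The higher ones were the pump subunit genes Atp6v0a1, Atp6v0c, Atp6v0d2, Atp6v1a and Atp6v1c1, the glycoprotein gene Lamp2, the Rag genes Rraga and Rragd, and the folliculin partner Fnip2. Of the 36 members with enough counts to test, 9 were higher by edgeR's quasi-likelihood test at an adjusted p under 0.05, which is 25% of those tested, 27 did not pass and 0 were lower. Over all 15212 genes tested, 8.93% were higher and 6.26% lower. None of the 36 was lower at an unadjusted p under 0.05 either, by edgeR, where 12.9% of all genes were, and DESeq2 and limma-voom called 0 lower as well. The median log2 fold change of the 36 was 0.23, with 30 above 0, beside a median of -0.03 over all genes tested. In 13 of the 36 the CCl4 and vehicle libraries did not overlap, as they did not in 22.5% of all genes tested. The plot of log2 fold changes by role shows every tested member. Without vehicle 2 and CCl4 4, 14 members were higher: the same 9 and Atp6v1g1, Atp6ap2, Mcoln1, Clcn7 and Ostm1. Calls rose over all genes too, to 1653 of 14982 higher without these 2 libraries, from 1358 of 15212 with all libraries. In the gene-level FPKM table deposited by the authors, limma called 4 of the 9, which were Atp6v0a1, Atp6v0d2, Atp6v1c1 and Lamp2 (pseudocount 0.1). Over all genes, 635 of 12020 were higher in this fit. Its limma adjusted p was 0.0638 for Atp6v0c, 0.0639 for Atp6v1a, 0.0869 for Rraga, 0.067 for Fnip2 and 0.541 for Rragd. The FPKM were not rescaled between libraries, and their sums ran from 81141.5 in CCl4 4 to 113841.7 in vehicle 1. The part of this in the lost calls was not tested. Not tested for low counts, none above 24 in any library, were Atp6v0a4, Atp6v1b1, Atp6v1e2 and Atp6v1g3, which are paralogs known from kidney, inner ear or testis.

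**Figure D1:**
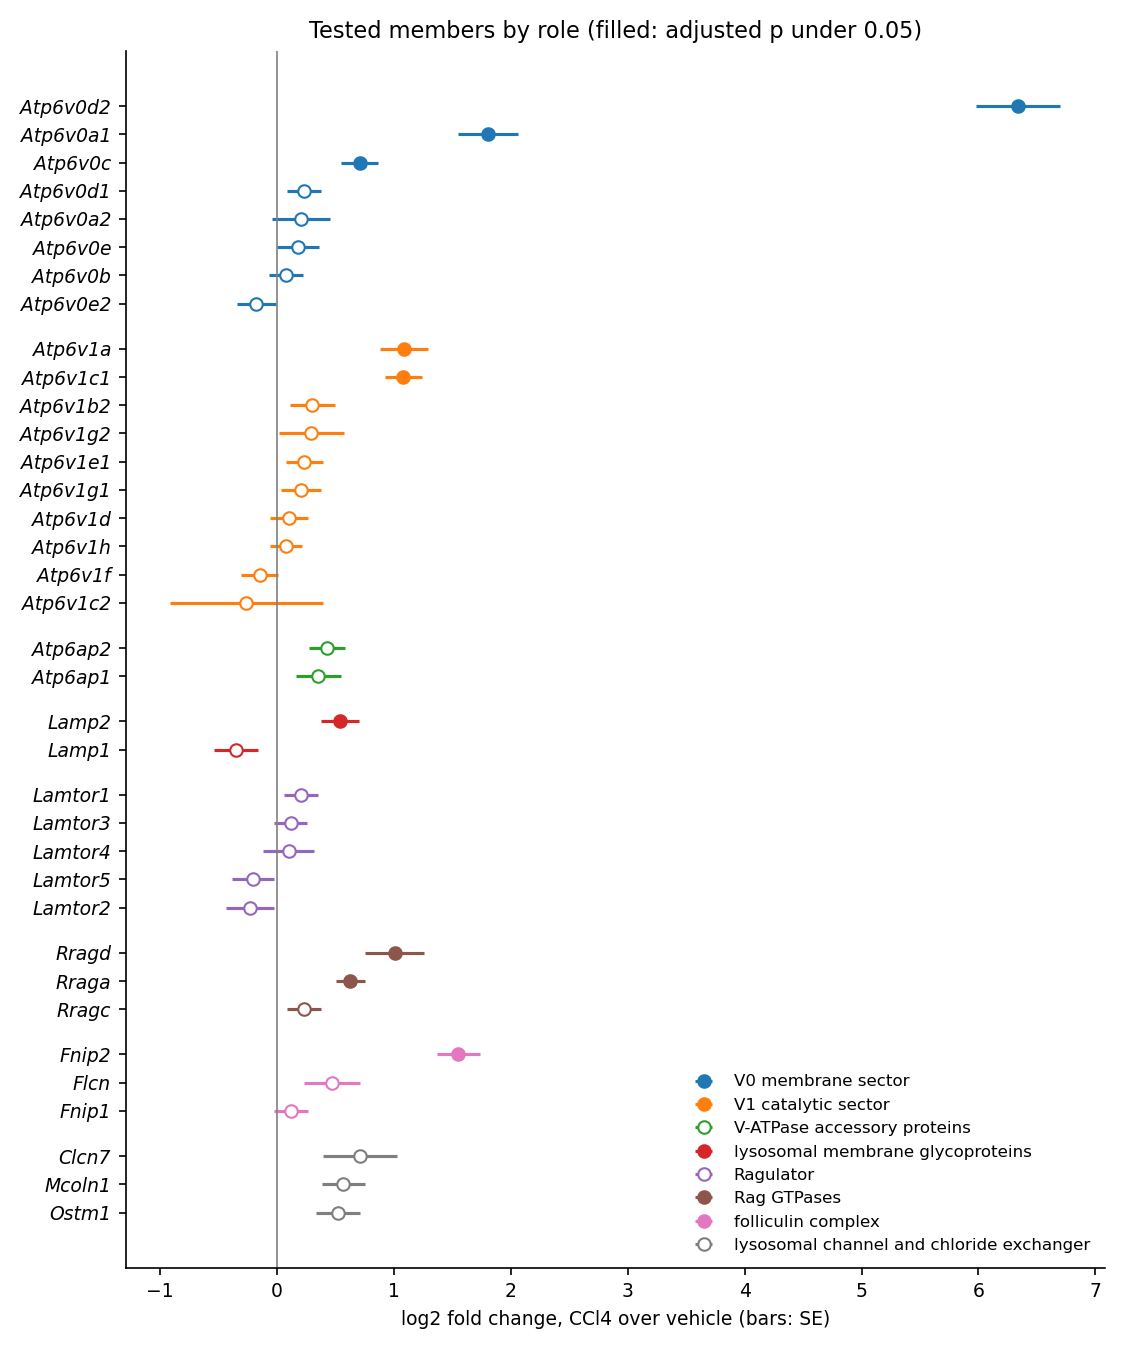
Log2 fold change (CCl4 over vehicle, x axis) of the 36 tested members, grouped and coloured by role, with bars for the SE; filled points passed edgeR at an adjusted p under 0.05. The 9 filled points all lie above 0, and Atp6v0d2 at 6.34 stands far to the right of the rest.

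In the membrane sector V0, 3 of 8 tested subunits rose. Atp6v0d2 encodes an alternative form of subunit d, which couples the rotor ring of V0 to the stalk of V1, and is known from osteoclasts (chromosome 4, 19876841 to 19922605, in GRCm38). It had 528, 217, 504 and 334 CPM in CCl4 libraries 1 to 4, against 3.52, 5.25, 3.88 and 6.88 CPM in vehicle libraries 1 to 4. The lowest CCl4 library lay far above the highest vehicle library. Atp6v0d2 was 81.0-fold higher in CCl4 (log2 fold change 6.34, SE 0.36, edgeR adjusted p = 2.63e-06), and its log2 fold change stayed between 4.09 and 6.56 over the 20 other settings tried. The osteoclast genes Dcstamp (34.5 ± 27.9 CPM in CCl4 and 3.12 ± 2.36 CPM in vehicle) and Ctsk (32.4 ± 14.8 and 1.94 ± 1.70 CPM) were also higher (SD, n = 4 each). So was Itgb3 (log2 fold change 1.26). Ocstamp, Acp5, Nfatc1 and Mmp9 were not called, with log2 fold changes of 0.88, 0.42, 0.56 and 1.03. The calcitonin receptor gene Calcr, a defining osteoclast marker, was too low to test, at 0 to 0.476 CPM in CCl4 and 0 to 0.0929 CPM in vehicle. All 6 lipid- and scar-associated macrophage markers were higher in the same libraries. Which cells the Atp6v0d2 RNA came from was not tested.

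Atp6v0a1 encodes a form of subunit a, which carries the proton path and directs the pump to a membrane (chromosome 11, 101009452 to 101063719). It had 145, 106, 193 and 114 CPM in CCl4 libraries 1 to 4, against 49.6, 23.5, 37.9 and 49.1 CPM in vehicle libraries 1 to 4. All CCl4 libraries were above all vehicle libraries, with vehicle 2 the lowest. The log2 fold change was 1.80 (SE 0.26, edgeR adjusted p = 0.000777). In the deposited FPKM table it was smaller, at 0.93 (limma, adjusted p = 0.0243, and 0.0695 with no filter on low values), or 0.76 with a pseudocount of 1. Atp6v0c encodes the proteolipid that builds the proton-carrying rotor ring (chromosome 17, 24163866 to 24169702), and it had 745, 685, 847 and 568 CPM in CCl4 libraries, against 468, 423, 424 and 428 CPM in vehicle libraries. These groups did not overlap either, though CCl4 4 lay nearest to vehicle (log2 fold change 0.71, SE 0.16, edgeR adjusted p = 0.0101). The pseudogene Atp6v0c-ps2 had 1745 to 3134 estimated counts in CCl4 and 1305 to 1754 in vehicle, so how kallisto split reads between these near-identical sequences makes the Atp6v0c level uncertain. With both loci summed, counts were 13678 to 21835 in CCl4 and 10403 to 13435 in vehicle, before scaling to library size.

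The other V0 subunits did not pass. Atp6v0b, the second proteolipid of the ring, was at 452 ± 37.1 CPM in CCl4 and 429 ± 52.3 CPM in vehicle. Atp6v0d1, the widely expressed form of subunit d, was at 83.5 ± 13 and 71.2 ± 3.39 CPM, and the small subunit gene Atp6v0e at 381 ± 51.7 and 336 ± 70.6 CPM. Their log2 fold changes of 0.07, 0.23 and 0.18 had SEs of 0.14 to 0.18, so differences of this size were not resolved with 4 libraries a group. Atp6v0a2, the form of subunit a known from the Golgi, had a log2 fold change of 0.20 (SE 0.25), and Atp6v0e2 had one of -0.18 (SE 0.17). Both were also not called.

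**Figure D2:**
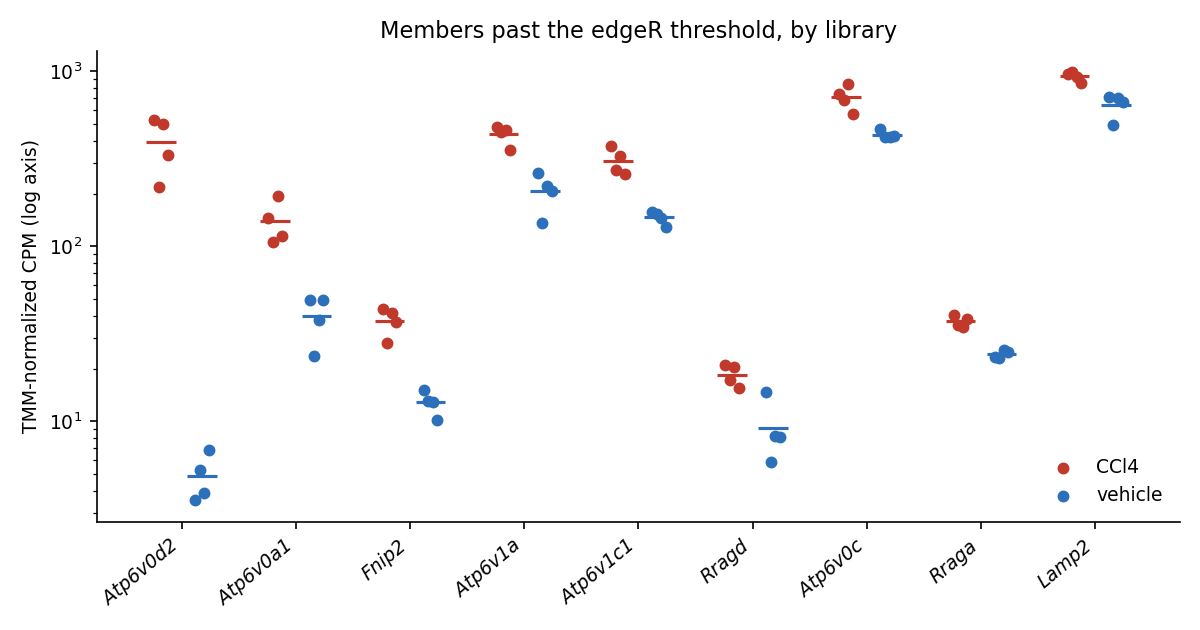
TMM-normalized CPM (log axis) of the 9 members that passed edgeR, with 1 point per library, 4 CCl4 libraries in red to the left and 4 vehicle libraries in blue to the right, and a bar at each mean. In all 9 the CCl4 points lie above every vehicle point, with the widest gap in Atp6v0d2 and the narrowest in Rragd.

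In the cytosolic sector V1, 2 of 10 tested subunits rose. Atp6v1a encodes subunit A, which hydrolyses ATP (chromosome 16, 44085402 to 44139705). Its levels were 483, 453, 459.5 and 357 CPM in CCl4 libraries 1 to 4, against 264, 135, 220.1 and 207 CPM in vehicle libraries 1 to 4. No vehicle library reached the lowest CCl4 library (log2 fold change 1.09, SE 0.20, edgeR adjusted p = 0.00386). Atp6v1c1 encodes the widely expressed form of subunit C, which joins the stator stalks to V0 and leaves the complex when pump sectors come apart (chromosome 15, 38661933 to 38692446). It had 374, 272, 329 and 258 CPM in CCl4 libraries, against 157, 153, 146 and 129 CPM in vehicle libraries. The vehicle libraries lay close together and below all CCl4 libraries (log2 fold change 1.08, SE 0.16, edgeR adjusted p = 0.000868).

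The remaining V1 subunits had log2 fold changes between -0.26 and 0.30, and none passed with all libraries. Without vehicle 2 and CCl4 4 together Atp6v1g1 was called (log2 fold change 0.42, edgeR adjusted p = 0.0362). Atp6v1b2, which encodes the nucleotide-binding subunit B beside A, was at 705 ± 127 CPM in CCl4 and 572 ± 112 CPM in vehicle (edgeR adjusted p = 0.347). In the deposited FPKM table, which was not rescaled between libraries, its sign was the other way, at -0.07 on the log2 scale. The stalk subunit genes Atp6v1d (0.10), Atp6v1e1 (0.23), Atp6v1f (-0.15), Atp6v1g1 (0.20) and Atp6v1g2 (0.29) and the regulatory subunit gene Atp6v1h (0.08) gave these log2 fold changes with SEs of 0.14 to 0.28. Of these, Atp6v1g2 was low, at 3.18 ± 0.68 CPM in CCl4 and 2.59 ± 0.36 CPM in vehicle. The Atp6v1g2 model shares 144 bases with the antisense gene Nfkbil1, which had up to 200 counts, so this level is uncertain. Atp6v1c2, the alternative subunit C, was at 0.57 ± 0.38 and 0.68 ± 0.44 CPM. Its model shares 50 bases with the antisense gene Pdia6, which had up to 9680 counts, so its level is uncertain without strand information.

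The pump's subunits are needed together, and their levels can be set side by side per length as TPM. The summed TPM of the 9 V0 genes was 2938 ± 153 in CCl4 and 2240 ± 77.2 in vehicle (SD, n = 4 each), and without Atp6v0d2 it was 2734 ± 96.7 and 2237 ± 76.9. For the 13 V1 genes the sum was 2339 ± 119 in CCl4 and 2125 ± 66.9 in vehicle. In both sectors every CCl4 library was above every vehicle library. Sums over members chosen with earlier results known were not tested.

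The 2 accessory subunits, which help the pump assemble and travel, were higher on average but not called. Atp6ap1 was at 819 ± 94.8 CPM in CCl4 and 641 ± 147 CPM in vehicle (edgeR adjusted p = 0.269), with vehicle 2 at 421 CPM and the other vehicle libraries at 703 to 728 CPM. Atp6ap2, also known as the prorenin receptor gene, had 458, 406, 394 and 342 CPM in CCl4 libraries, against 339, 245, 307 and 299 CPM in vehicle libraries. Its groups did not overlap, though CCl4 4 and vehicle 1 lay close (log2 fold change 0.43, SE 0.16, edgeR adjusted p = 0.0897). DESeq2 called it (adjusted p = 0.0258), and so did edgeR without vehicle 2 and CCl4 4 (adjusted p = 0.0436).

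Where alternative subunits can take the same place in a complex, the share of each was taken from TPM. Atp6v0d2 made up 78.7%, 56.5%, 73.5% and 72.0% of the summed subunit d TPM in CCl4 libraries 1 to 4, against 2.64%, 3.63%, 2.95% and 4.98% in vehicle libraries 1 to 4. It was thus the more abundant form of the 2 in every CCl4 library and the minor one in every vehicle library. For subunit a, Tcirg1 (the a3 form of lysosomes and osteoclast membranes, not one of the 40 genes) held 78.0% ± 1.46 of the summed TPM of Atp6v0a1, Atp6v0a2, Atp6v0a4 and Tcirg1 in CCl4 and 77.5% ± 4.44 in vehicle. Tcirg1 itself was at 386 ± 87.9 CPM in CCl4 and 179 ± 27.3 CPM in vehicle (log2 fold change 1.11, SE 0.19, edgeR adjusted p = 0.00227), so this share was taken while both Tcirg1 and Atp6v0a1 were higher. The exact permutation p was 0.0286 for the Atp6v0d2 share, the smallest that 4 libraries against 4 allow, and 0.829 for Tcirg1 (two-sided). Adjusted over the 13 shares computed they were 0.124 and 0.886, so no share could pass the threshold unless more of them had reached the smallest p.

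**Figure D3:**
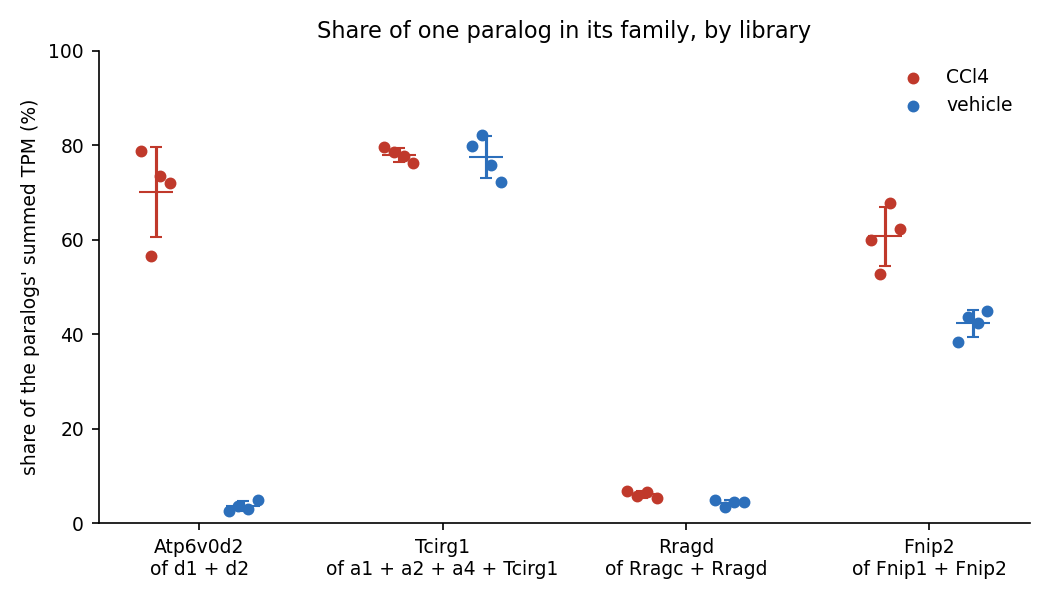
Share (%) of 1 paralog in the summed TPM of its family, per library, with CCl4 in red to the left and vehicle in blue to the right; horizontal marks are means and bars the SD of 4 libraries. Atp6v0d2 lies at 56.5% or more in CCl4 and at 4.98% or less in vehicle, Fnip2 and Rragd are apart by less, and the Tcirg1 points overlap.

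Of the 2 abundant lysosomal membrane glycoproteins, Lamp2 rose and Lamp1 did not pass the test. Lamp2 had 971, 989.9, 925 and 854 CPM in CCl4 libraries 1 to 4, against 714, 495, 705 and 664 CPM in vehicle libraries 1 to 4. The groups did not overlap and vehicle 2 was the lowest (log2 fold change 0.54, SE 0.16, edgeR adjusted p = 0.0438). This call ended without CCl4 1, 2 or 3 (adjusted p = 0.0823, 0.106 and 0.0618) and without vehicle 3 or 4 (0.0811 and 0.101), with library size as the only scaling (0.0678) and with no filter on low counts (0.0945). Lamp1 was at 895 ± 163 CPM in CCl4 and 1144 ± 210.4 CPM in vehicle, its groups overlapped, and it did not pass (log2 fold change -0.35, SE 0.19, edgeR adjusted p = 0.243). The difference between these 2 fold changes was not tested.

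Lamp2 has alternative last exons, which encode the end of the luminal part, the membrane span and the short cytosolic tail. Lamp2-201 ends in the exon of the isoform known as LAMP-2A, the receptor of chaperone-mediated autophagy, and Lamp2-202 in that of LAMP-2B, whose tail is not known for that role. The coding parts of these last exons are shown because they set the isoforms apart as proteins. The level estimates may also rest on parts of the transcripts outside these bases, which are not shown. Both are 140 bases with the stop codon, on the minus strand of chromosome X in GRCm38, at 38405432 to 38405571 for Lamp2-201 and 38421712 to 38421851 for Lamp2-202. Capitals mark the 65 positions at which the 2 differ, so that 53.6% of positions are identical.
Lamp2-201: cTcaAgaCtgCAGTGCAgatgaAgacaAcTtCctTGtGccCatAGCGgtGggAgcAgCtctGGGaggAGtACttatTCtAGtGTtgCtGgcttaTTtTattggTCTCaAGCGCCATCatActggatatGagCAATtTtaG
Lamp2-202: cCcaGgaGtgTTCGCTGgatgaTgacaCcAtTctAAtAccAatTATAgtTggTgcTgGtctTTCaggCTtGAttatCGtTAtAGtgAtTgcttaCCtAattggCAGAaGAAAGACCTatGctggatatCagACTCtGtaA

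The transcript with the LAMP-2A exon was higher in its own test. Lamp2-201 had 394, 408, 379 and 435 TPM in CCl4 libraries 1 to 4, against 207, 197, 213 and 209 TPM in vehicle libraries 1 to 4. The values were close within each group and far apart between groups, vehicle 2 included. Lamp2-202 had 154, 167, 121 and 142 TPM in CCl4 libraries, against 150.4, 74.9, 166 and 162 TPM in vehicle libraries, and the groups overlapped. In a per-transcript edgeR test over all transcripts, added after the values had been seen, Lamp2-201 was higher in CCl4 (log2 fold change 0.95, SE 0.11, adjusted p = 0.00333), and its adjusted p lay between 0.00238 and 0.0195 without each library in turn. For Lamp2-202 the log2 fold change was 0.07 (edgeR adjusted p = 0.922) and turned negative without vehicle 2 (-0.10). Lamp2-203, with the exon of LAMP-2C, held at most 0.44% of protein-coding Lamp2 TPM in any library.

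Lamp2-201 took 71.7%, 70.8%, 75.6% and 75.1% of protein-coding Lamp2 TPM in CCl4 libraries 1 to 4, against 57.8%, 72.3%, 56.1% and 56.2% in vehicle libraries 1 to 4. Vehicle 2 lay within the CCl4 range, and the other 3 vehicle libraries lay below it. The difference of 12.7 percentage points gave an exact permutation p of 0.0857 (two-sided, 0.223 adjusted over the 13 shares), and it was 16.6 points without vehicle 2. Across the members, edgeR's test of transcript usage called 0 of 112 transcripts in 29 genes (5 at an unadjusted p under 0.05, where 2.72% of all 32897 transcripts were and 0.079% passed after adjustment). On simulated counts that test recovered 8% of changes of a log2 of 2, so its result says little on usage.

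**Figure D4:**
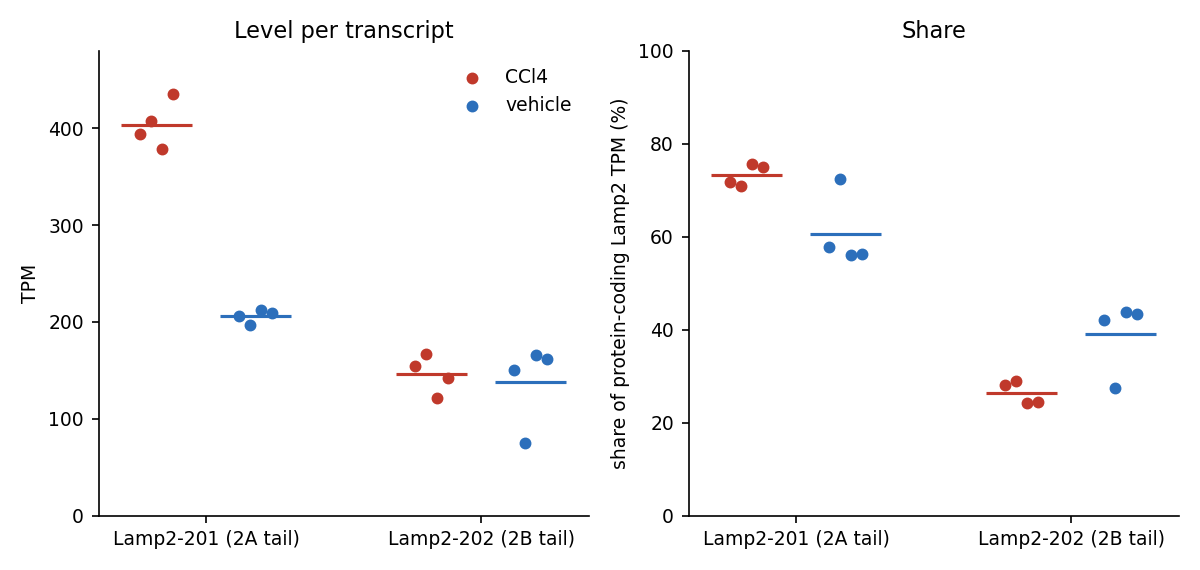
Left, TPM of Lamp2-201 and Lamp2-202 per library; right, their share (%) of protein-coding Lamp2 TPM; CCl4 libraries are red and left, vehicle libraries blue and right, with a bar at each mean. Lamp2-201 is at 379 to 435 TPM in CCl4 and 197 to 213 TPM in vehicle, and in the right panel 1 vehicle library (vehicle 2) lies among the CCl4 points.

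Ragulator, the lysosomal scaffold of the Rag GTPases, did not pass in any of its 5 subunits. Lamtor1, the lipid-anchored subunit that ties the complex to the membrane, was at 118 ± 17.2 CPM in CCl4 and 102 ± 9.39 CPM in vehicle. Lamtor2 was at 119.6 ± 15.7 and 140.3 ± 45.5 CPM, Lamtor3 at 72.9 ± 10.1 and 67.2 ± 6.38 CPM, Lamtor4 at 22.5 ± 4.50 and 21.03 ± 6.44 CPM, and Lamtor5 at 112 ± 16.3 and 130.0 ± 30.2 CPM. Their log2 fold changes ran from -0.23 to 0.20 with SEs of 0.14 to 0.22, and the groups overlapped in all 5. Vehicle 2 held the highest vehicle value in each of the 5, and without vehicle 2 and CCl4 4 the log2 fold change of Lamtor2 was 0.09 in place of -0.23.

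Among the Rag GTPases, which work as pairs of RagA or RagB with RagC or RagD, 2 of 3 rose. Rraga (chromosome 4, 86575668 to 86577285) encodes RagA and had 40.7, 35.3, 34.4 and 38.6 CPM in CCl4 libraries 1 to 4, against 23.1, 22.9, 25.7 and 25.0 CPM in vehicle libraries 1 to 4. The libraries of each group were close together, without overlap (log2 fold change 0.62, SE 0.12, edgeR adjusted p = 0.00553). Rragd (chromosome 4, 32983037 to 33022180) encodes RagD and had 21.05, 17.2, 20.3 and 15.4 CPM in CCl4 libraries, against 14.7, 5.85, 8.23 and 8.08 CPM in vehicle libraries. Here vehicle 1 came close to CCl4 4 (log2 fold change 1.00, SE 0.26, edgeR adjusted p = 0.0205). The Rragd call ended without CCl4 1 or 3 (adjusted p = 0.0632 and 0.0527), without vehicle 3 or 4 (0.0631 and 0.0628) and with length-scaled TPM counts (0.0697). In the deposited FPKM table the log2 fold change of Rragd was 0.29 with a pseudocount of 0.1 and 0.10 with a pseudocount of 1 (limma, adjusted p = 0.541 and 0.539).

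Rragc, for RagC, was at 142 ± 6.24 CPM in CCl4 and 121 ± 18.4 CPM in vehicle and did not pass (edgeR adjusted p = 0.342). Per length it was far more abundant than Rragd, at 72.6 ± 4.67 TPM in CCl4 and 63.2 ± 10.9 TPM in vehicle beside 4.70 ± 0.42 and 2.90 ± 0.84 TPM. The share of Rragd in the sum of both was 6.11% ± 0.731 in CCl4 and 4.30% ± 0.621 in vehicle (exact permutation p = 0.0286, the smallest possible, 0.124 adjusted). The difference of 1.80 percentage points was 0.78 from the FPKM table. Rragb, for RagB and not one of the 40 genes, held 1.89% ± 0.544 of the summed Rraga and Rragb TPM in CCl4 and 1.47% ± 1.75 in vehicle.

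In the folliculin complex, which activates GTP hydrolysis by RagC and RagD, 1 of 3 genes rose, Fnip2. Fnip2 (chromosome 3, 79455974 to 79567796) had 43.9, 27.8, 41.5 and 37.1 CPM in CCl4 libraries 1 to 4, against 15.2, 13.1, 12.9 and 10.2 CPM in vehicle libraries 1 to 4. Every CCl4 library lay well above every vehicle library (log2 fold change 1.55, SE 0.18, edgeR adjusted p = 0.000211). In the deposited FPKM table the log2 fold change was 0.68 with a pseudocount of 0.1 and 0.37 with 1. Its paralog Fnip1, which can take the same place beside folliculin, was at 43.1 ± 5.54 CPM in CCl4 and 39.7 ± 4.99 CPM in vehicle (log2 fold change 0.12, SE 0.15, edgeR adjusted p = 0.671). The Fnip2 share of the summed Fnip1 and Fnip2 TPM was 60.7% ± 6.20 in CCl4 and 42.3% ± 2.82 in vehicle, without overlap (exact permutation p = 0.0286, the smallest possible, 0.124 adjusted). Flcn, for folliculin, was at 188 ± 24.4 CPM in CCl4 and 136 ± 44.1 CPM in vehicle and did not pass (edgeR adjusted p = 0.229), with vehicle 2 at 70.7 CPM and the other vehicle libraries at 150.2 to 165 CPM.

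None of the ion transport genes Mcoln1, Clcn7 and Ostm1 passed with all libraries. Mcoln1 encodes TRPML1, which releases calcium from lysosomes, and had 174, 154, 189 and 157 CPM in CCl4 libraries 1 to 4, against 138, 77.1, 124 and 116 CPM in vehicle libraries 1 to 4. Its groups did not overlap (log2 fold change 0.57, SE 0.18, edgeR adjusted p = 0.0568). Clcn7 encodes a chloride-proton exchanger and was at 121 ± 27.3 CPM in CCl4 and 74.4 ± 30.9 CPM in vehicle (log2 fold change 0.71, SE 0.32, edgeR adjusted p = 0.168). Ostm1, for the subunit that stabilises that exchanger, was at 135 ± 14.3 CPM in CCl4 and 94.3 ± 22.8 CPM in vehicle (log2 fold change 0.52, SE 0.19, edgeR adjusted p = 0.0916). In all 3 genes the CCl4 and vehicle libraries did not overlap, and the vehicle 2 library was the lowest of the 8. Without vehicle 2 and CCl4 4 the log2 fold changes were smaller, at 0.45, 0.52 and 0.40, while the edgeR adjusted p-values were 0.0339, 0.0461 and 0.0366.

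By transcript, 119 transcripts of the members were tested with edgeR in the same added fit, of which 10 in 9 genes were higher and 0 lower (25 and 2 at an unadjusted p under 0.05), while 2.41% of all 38645 transcripts tested were higher. The shares of all transcripts that were lower, or that had an unadjusted p under 0.05, were not taken, so those counts have no base here. Of the 10, 8 are annotated as protein-coding: Atp6v0a1-202, Atp6v0c-201, Atp6v0d2-201, Atp6v1a-202, Atp6v1c1-201, Fnip2-203, Lamp2-201 and Rraga-201. The other two are models with a retained intron, Atp6v1c1-205 and Flcn-205. Flcn-205 was at 76.9 ± 10.8 CPM in CCl4 and 41.1 ± 9.80 CPM in vehicle (log2 fold change 0.91, SE 0.20, edgeR adjusted p = 0.0404), while Flcn as a gene did not pass.

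Promoters were searched for CACGTG, the core bound by TFEB, TFE3 and many other basic helix-loop-helix factors. RefSeq windows on GRCm38.p6, from 250 bases before to 50 after the start, were at hand for 33 of the 40 members. For some members the RefSeq start lay inside the gene model. The windows of Atp6v0a1, Atp6v0e and Ostm1 began at 101010148, 26676146 and 42678666, and their gene models at 101009452, 26663231 and 42583822. Which start was used in these libraries was not tested, so the motif counts hold for the RefSeq starts only. CACGTG stood in 11 of the 33 (33.3%) and in 8.09% of 27025 genes. These 11 were Atp6v0b, Atp6v0d1, Atp6v0e, Atp6v1a, Clcn7, Fnip1, Lamp1, Lamtor1, Lamtor4, Mcoln1 and Rragc. With one further base, TCACGTG on either strand stood in the same 11 and in 4.29% of genes, and TCACGTGA stood in 5 (15.2%) and in 1.12% of genes. The full CLEAR element of lysosomal genes, a longer palindrome around the same core, stood in none of the 33 and in 0.37% of genes. These patterns overlap, as each longer one holds the shorter. Of the 7 higher members with a window, 1 held CACGTG, which was Atp6v1a. Atp6v0d2 and Atp6v1c1, also higher, had no window. Whether the motif goes with the level in CCl4 was not tested.

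The 150 bases before the start of 3 members are shown as examples: Atp6v1a, which rose, Mcoln1, which lay just outside the threshold, and Lamp1, which has 4 matches and the most negative log2 fold change of the tested members. They lie at chr16:44139260-44139409 on the minus strand, chr8:3500369-3500518 on the plus strand and chr8:13159011-13159160 on the plus strand. Capitals mark TCACGTG or its reverse complement, and matching letters show neither binding nor its absence.
Atp6v1a: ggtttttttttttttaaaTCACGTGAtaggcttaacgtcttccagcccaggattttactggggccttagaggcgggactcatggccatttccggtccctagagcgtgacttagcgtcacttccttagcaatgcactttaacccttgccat
Mcoln1: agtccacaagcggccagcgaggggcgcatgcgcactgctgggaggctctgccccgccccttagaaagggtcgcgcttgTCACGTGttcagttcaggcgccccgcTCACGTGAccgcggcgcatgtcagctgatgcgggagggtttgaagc
Lamp1: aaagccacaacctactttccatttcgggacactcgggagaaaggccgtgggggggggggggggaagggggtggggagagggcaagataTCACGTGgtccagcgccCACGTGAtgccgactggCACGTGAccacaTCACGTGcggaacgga

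Genes around the members, from a list of pump regulators, mTORC1 and Rag regulators, lysosome positioning factors and lysosomal membrane transporters, were read from the same fit. Of 99 tested, 21 were higher (21.2%, beside 8.93% of all genes) and 2 lower, and the median log2 fold change was 0.17. Of the 21, 12 passed edgeR without each library in turn and 9 did not. Without vehicle 4 the count was 13, and without vehicle 2 and CCl4 4 together it was 23, with Tsc1 the 1 call of the 21 that ended. Over all genes tested, 1045 of 15598 and 1653 of 14982 were higher in these settings. In the deposited FPKM table limma called 7 of the 21 (pseudocount 0.1), which were Tcirg1, Dmxl2, P2rx4, Slc37a2, Mfsd12, Npc1 and Cd63. Of the others, 12 had adjusted p-values there from 0.0507 to 0.887, while Castor1, not matched by symbol, and Wdr7, under the filter on low values, did not enter that fit. With length-scaled TPM counts Wdr7, Slc38a9, Kxd1, Tpcn1, Slc36a1, Slc29a3, Laptm5 and the lower gene Sec13 did not pass edgeR, and with library size as the only scaling Wdr7, Tsc1, Slc38a9, Kxd1, Tpcn1 and Slc29a3 did not.

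Lysosomal transporters had the most calls, 8 of 18 (44.4%), and 0 were lower. Mfsd12, which imports cysteine into lysosomes, was at 135 ± 49.5 CPM in CCl4 and 25.2 ± 6.44 CPM in vehicle (log2 fold change 2.42, SE 0.28, edgeR adjusted p = 0.000211). Slc37a2, a sugar-phosphate carrier of macrophages, rose by 1.49 (SE 0.22), and the amino acid carriers Slc36a4 and Slc36a1 by 1.19 (SE 0.24) and 0.84 (SE 0.17), all on the log2 scale. For Slc36a1 the log2 fold change was 0.51 with length-scaled TPM counts (edgeR adjusted p = 0.103), and in the deposited FPKM table it was 0.07 with a pseudocount of 0.1 and 0.02 with 1 (limma, adjusted p = 0.887 and 0.925). The cholesterol exporter Npc1 rose by 0.88 (SE 0.14), the histidine and peptide carrier Slc15a4 by 0.69 (SE 0.17) and the sialic acid exporter Slc17a5 by 0.57 (SE 0.12). The nucleoside carrier Slc29a3 (0.70, SE 0.20) also passed with all libraries, but not without CCl4 1 or 3 or vehicle 1 or 4 (edgeR adjusted p = 0.0626, 0.0845, 0.0771 and 0.0529).

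Among 12 lysosomal channel genes, 3 were higher (25%) and 1 lower. The ATP-gated channel gene P2rx4 was at 662 ± 97.2 CPM in CCl4 and 359.8 ± 50.7 CPM in vehicle (log2 fold change 0.88, SE 0.17, edgeR adjusted p = 0.00422). Trpm2, for a cation channel opened by ADP-ribose, was at 41.4 ± 5.33 CPM in CCl4 and 102 ± 32.9 CPM in vehicle (log2 fold change -1.30, SE 0.24, edgeR adjusted p = 0.0037). The two-pore channel genes Tpcn1 (0.53, SE 0.15) and Tpcn2 (0.76, SE 0.22) passed with all libraries. Tpcn1 did not pass without CCl4 1, 2, 3 or 4 or vehicle 1 or 4 (edgeR adjusted p = 0.0789, 0.0553, 0.0829, 0.0599, 0.0689 and 0.114), nor Tpcn2 without CCl4 1 or 3 or vehicle 3 or 4 (0.0972, 0.0844, 0.0594 and 0.0861). In the deposited FPKM table the log2 fold changes with pseudocounts of 0.1 and 1 were 0.15 and 0.03 for Tpcn1 (limma, adjusted p = 0.712 and 0.721), and 0.48 and 0.30 for Tpcn2 (0.304 and 0.312).

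Upstream of the Rags, 2 of 21 further regulators were higher (9.52%, close to the 8.93% of all genes) and 1 lower. Castor1, a cytosolic arginine sensor that restrains mTORC1, had 14.4, 10.7, 15.98 and 13.7 CPM in CCl4 libraries 1 to 4, against 4.24, 1.72, 3.64 and 4.48 CPM in vehicle libraries 1 to 4. These groups were well apart (log2 fold change 1.95, SE 0.28, edgeR adjusted p = 0.00076). Slc38a9, the arginine sensor in the lysosomal membrane (0.49, SE 0.13), and Sec13, of the GATOR2 complex and of the nuclear pore and secretory coats (-0.45, SE 0.13), passed with all libraries. Slc38a9 did not pass without CCl4 1, 2 or 4 or vehicle 1, 3 or 4 (edgeR adjusted p from 0.0504 to 0.098), nor Sec13 without any CCl4 library or vehicle 1, 3 or 4 (0.065 to 0.0992). Of 10 genes of mTORC1 and its switch Rheb, 1 passed (10%, again close to the share of all genes): Tsc1, for a subunit of the complex that inactivates Rheb, at 25.8 ± 2.62 CPM in CCl4 and 18.9 ± 1.77 CPM in vehicle (0.45, SE 0.14, edgeR adjusted p = 0.0473). Its adjusted p lay between 0.0539 and 0.138 without CCl4 2, 3 or 4 or any vehicle library. Without vehicle 2 and CCl4 4 together Tsc1 did not pass either (log2 fold change 0.36, edgeR adjusted p = 0.101).

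Of 8 tested pump regulators, 2 were higher (25%), both of them subunits of the mammalian counterpart of RAVE, the complex that in yeast joins V1 to V0. Dmxl2 was at 38.0 ± 4.96 CPM in CCl4 and 14.6 ± 3.16 CPM in vehicle (log2 fold change 1.38, SE 0.18, edgeR adjusted p = 0.000363). Wdr7 (0.81, SE 0.24, edgeR adjusted p = 0.0399) did not pass without CCl4 1, 2 or 3 or vehicle 1, 3 or 4 (0.0547 to 0.0894). None of the 4 V-ATPase assembly factors tested passed edgeR, with 1 higher and 1 lower at an unadjusted p under 0.05, and the V0 partner Rnasek did not pass either. Lysosome positioning genes gave 2 calls of 12 (16.7%): the GTPase Arl8b (0.65, SE 0.16), which did not pass without CCl4 2 (edgeR adjusted p = 0.0558), and the BORC subunit Kxd1 (0.49, SE 0.13), which did not pass without CCl4 2 or 3 or vehicle 1, 3 or 4 (0.0525 to 0.085).

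Of 12 other lysosomal membrane genes 2 rose (16.7%). Cd63, a tetraspanin of late endosomes, had 1830.1, 1246, 1745 and 1166 CPM in CCl4 libraries 1 to 4, against 307, 317, 151 and 208 CPM in vehicle libraries 1 to 4. The lowest CCl4 library was well above the highest vehicle library (log2 fold change 2.61, SE 0.27, edgeR adjusted p = 0.000104). Laptm5 (0.71, SE 0.21) passed with all libraries but not without CCl4 1, 2 or 3 or vehicle 3 or 4 (edgeR adjusted p = 0.0577 to 0.0909).

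**Figure D5:**
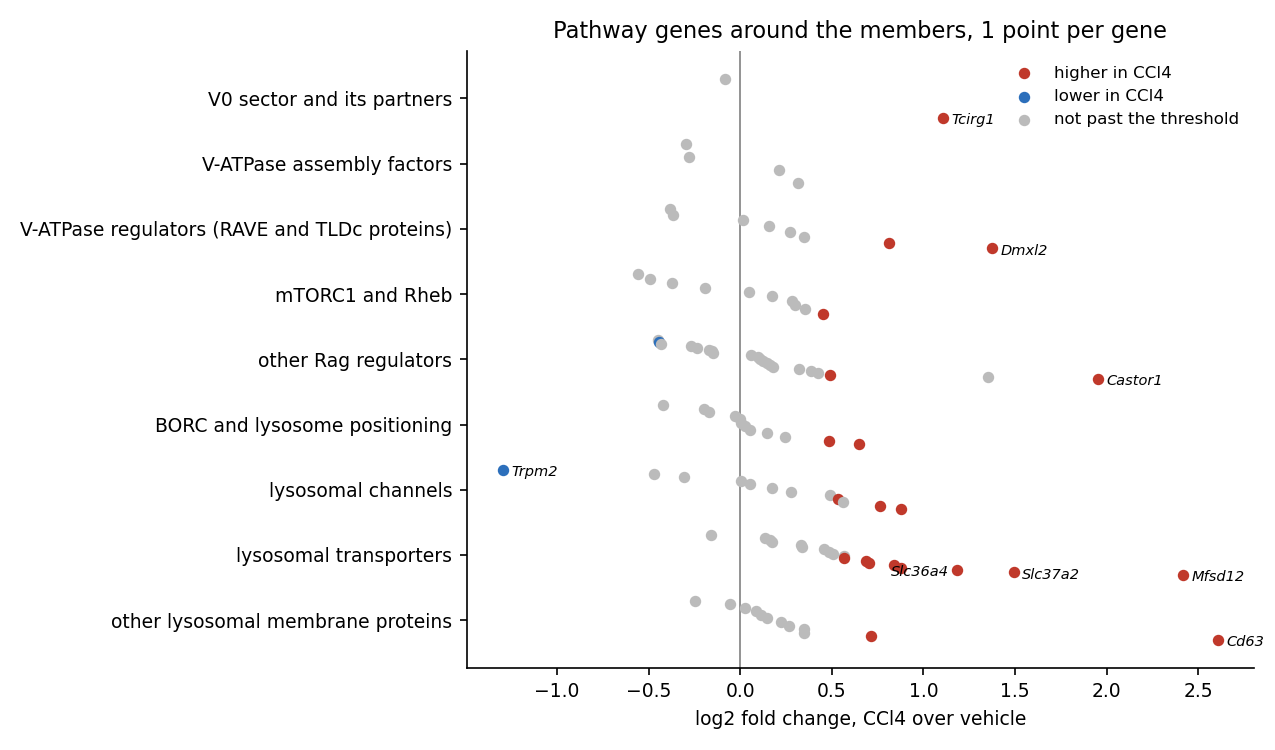
Log2 fold change (CCl4 over vehicle, x axis) of the 99 tested pathway genes, 1 point per gene in rows by list, red where edgeR called the gene higher, blue where lower and grey where neither. Transporters hold 8 red points, Cd63 at 2.61 and Mfsd12 at 2.42 lie farthest right, and the blue points are Trpm2 and Sec13.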

How the data were processed

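For each library the authors deposited estimated counts and TPM for every transcript, as kallisto gives them, with counts not normalized between libraries and TPM scaled within each library. The series also had a gene-level FPKM table deposited by the authors, whose making the sources used here do not describe. Per the submitters' processing notes, the tools were kallisto, edgeR and limma on build mm10 (GRCm38), and neither tool versions nor the transcript release are stated. Per the labels' protocols, amplification used SMART-Seq HT and library preparation NEBNext Ultra II, and no step that marks the strand is named, so antisense overlaps cannot be told apart. Reads that fit several similar transcripts are divided between them by kallisto, which makes near-identical copies uncertain.

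Transcripts were joined to GENCODE M21 genes by identifier without version. Of 117494 transcripts, 116405 matched, 13 of them with the version as well, and the 1089 unmatched held 0.29% to 0.313% of a library's counts and were left out. The FPKM table has 1 unnamed line, holding 0.0156% to 0.0369% of a column, and it was not used. Estimated counts were summed per gene and rounded. Genes were kept by filterByExpr (minimum count 10, minimum total 15), which left 15212. CCl4 was compared with vehicle over all of them with the quasi-likelihood test of edgeR 4.0.16 in R 4.3.3, with TMM scaling and group as the only term, two-sided, and p-values were adjusted by Benjamini-Hochberg and read at 0.05. Gene levels are CPM after TMM scaling, as mean ± SD over the 4 libraries of a group, and the SE of a log2 fold change is its size over the root of the F statistic. Shares are of summed TPM, tested by exact permutation over the 4 and 4 libraries (scipy 1.17.1). Transcript usage was tested with edgeR's diffSpliceDGE. Alternatives used DESeq2 1.42.0 and limma 3.58.1, with limma run on voom weights or on log2(FPKM + 0.1) or log2(FPKM + 1) with an FPKM above 0.1 in 4 or more libraries. Fold changes on that scale understate the change of low genes. No scaling between libraries was applied to the FPKM, whose sums ran from 81141.5 (CCl4 4) to 113841.7 (vehicle 1).

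In simulated counts of 14889 genes with 200 changed, the gene test recovered 76% of changes of a log2 of 1 and 100% of changes of a log2 of 2, and 5% of 186 calls were false. The usage test on 29944 simulated transcripts recovered 1% and 8%, and 41% of its 22 calls were false. In both simulations the changes were placed above the median level, and no library was made to stand apart as vehicle 2 does. These rates thus do not cover low members such as Atp6v1c2. The same replicate number in both groups did not mark paired libraries in the labels.

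The 40 members, the pathway and marker lists and the tests were chosen with earlier results of these data known. Members past the threshold are given in every library, as are Atp6ap2 and Mcoln1, which did not pass. The others are given by group means, ranges or log2 fold changes. Pathway genes are named where they pass the threshold or are paralogs of a member. The per-transcript edgeR test was added after the data were seen. Promoter windows are from RefSeq on GRCm38.p6, and genes without an entry were not searched.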

Additional observations from a re-analysis of the deposited data

Results flagged for a closer look

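In each group of 4 libraries, the highest or lowest value was set against the rest by Dixon's criterion for the 36 tested members and 13 shares. Of 98 groups checked, 12 held a library far from the others, where chance gives about 1 in 20. In 9 of these the library was vehicle 2. Atp6ap1 had 420.5 CPM there and 703.2 to 728.3 CPM in the other vehicle libraries, Flcn 70.73 CPM and 150.2 to 165.2 CPM, Clcn7 28.52 CPM and 85.4 to 95.71 CPM, and Atp6v0e2 28.7 CPM and 42.73 to 44.77 CPM. Lamtor2 had 208.4 CPM in vehicle 2 and 113.9 to 120.7 CPM in the others, and Lamtor5 175.1 CPM and 111.3 to 117.7 CPM. Vehicle 2 was also apart in the share of Atp6v0e2 (2.49%, others 4.778% to 5.235%), of Lamp2-201 (72.31%, others 56.08% to 57.8%) and of Lamp2-202 (27.46%, others 42.09% to 43.71%).

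The other three lay elsewhere. Atp6v0c was at 467.8 CPM in vehicle 1 and 422.5 to 428.1 CPM in the other vehicle libraries. Atp6v1b1 held 0.128% of subunit B TPM in vehicle 4 and 0.02892% to 0.03757% in the others, on very few counts. Lamp2-203 held 0.4398% of protein-coding Lamp2 TPM in CCl4 4 and 0.1661% to 0.2124% in the other CCl4 libraries.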

How the results depend on the processing

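Of the 9 higher members, 7 passed edgeR without each library in turn, and the exceptions were Lamp2 and Rragd. The number of higher members lay between 7 and 10 without each library in turn, and none of the settings run called a member lower. It was 8 with library size only, 10 with upper-quartile scaling, 12 with DESeq2, 14 without vehicle 2 and CCl4 4 together, and, on the FPKM table with limma, 4 with a pseudocount of 0.1, 4 with 1 and 3 with no filter. Over all genes tested, 1004 to 1511 were higher without each library in turn, beside 1358 of 15212 in the main fit. With library size only they were 1082, with upper-quartile scaling 1226 and with DESeq2 1788, each of 15212. Without vehicle 2 and CCl4 4 together they were 1653 of 14982. On the FPKM table they were 635 and 619 of 12020, and 375 of 24443 with no filter. Atp6v0d2 and Atp6v1c1 passed in every setting run. The median log2 fold change of all genes was -0.03 by TMM, -0.16 by library size alone and -0.12 by upper quartiles, beside member medians of 0.23, 0.09 and 0.14, and 58.8%, 43.1% and 47.5% of calls over all genes were higher. The sign of 11 members that were not called varied among settings.

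Higher pathway genes numbered 7, 8 and 6 on the FPKM table (pseudocount 0.1, pseudocount 1, no filter) and 13 to 20 without each library in turn, the lowest without vehicle 4. Lower pathway genes numbered 2 in the main fit, 4 with library size only, 5 with upper-quartile scaling and 1 with no filter on low counts. They numbered 1 with length-scaled TPM counts, 1 in each of the 3 fits to the FPKM table, and 1 to 3 without each library in turn. Lower calls over all genes moved too, from 953 of 15212 in the main fit to 1431 and 1356 in the first 2 of these settings. They were 845 of 28917 with no filter and 788 of 15226 with length-scaled TPM counts. On the FPKM table they were 654 and 637 of 12020, and 319 of 24443 with no filter. Without each library in turn they were 581 to 1164. Without each library in turn, usage was called for 0 to 1 member transcripts, the 1 being Clcn7-204 without vehicle 2. The cause of these moves was not tested.

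Libraries with the same number correlated at 0.02, -0.24, 0.04 and -0.17 in their deviations from the group means. Those with unlike numbers correlated from -0.46 to 0.472. So few values cannot tell whether the numbers pair libraries, and the labels do not say. With the replicate number as a block, 9 members were higher, 8 of them the same. Lamp2 was lost (adjusted p = 0.0705) and Mcoln1 gained (0.0375), and 19 pathway genes were higher and 1 lower. Over all genes, 1281 of 15212 were higher in the fit with this block, beside 1358 in the main fit. The higher share of all calls was 60.7% with the block and 58.8% in the main fit. For shares the exact sign-flip test over the 4 pairs cannot go below p = 0.125. The lowest tested members, Atp6v1c2 and Atp6v1g2, had SEs of 0.65 and 0.28, so small differences were not detectable at this depth.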
